A study of Mus musculus with 6 samples.

Results

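The genes described here are 20 cytosolic aminoacyl-tRNA synthetases together with Atf4 and 15 genes that ATF4 is known to control or that belong to the amino acid response, 36 genes in all. They were selected by symbol, as every probe of the array table whose symbol, in upper case, was on the list (ATF4, ASNS, DDIT3 and so on, written below in the mouse style). Of the 36 genes, 35 had a probe, and these carried 76 of the 45281 probes of the table (30854 distinct symbols). Slc7a5, which encodes a transporter of large neutral amino acids, had no probe under its symbol. The samples were mGLUTag cells, a murine L-cell line, immortalized, that models the intestinal cells which secrete GLP-1. All 6 samples were held in low serum, treated with forskolin to synchronize their clocks and given back growth medium, and RNA was collected 4 h (n = 3) or 16 h (n = 3) later. These times were chosen by the study as the peak and trough of the clock gene Arntl. All samples are of 1 line in culture, carried the same treatment and differed in the labels by time alone, so there was no unsynchronized group and no group deprived of amino acids. Whether the 3 samples of a time point came from separate cultures is not stated, so p-values measure the spread between these samples, which may be technical.

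Aminoacyl-tRNA synthetases join each amino acid to its tRNA and so feed the ribosome. When an amino acid is short, uncharged tRNA activates the kinase GCN2, which phosphorylates the initiation factor eIF2α. General translation then falls while the mRNA of the transcription factor ATF4 is translated more. ATF4, as a dimer with a C/EBP protein, binds C/EBP-ATF response elements in genes of amino acid synthesis, amino acid uptake and tRNA charging, and in Ddit3 and Trib3, which act later in the stress response. The question put to the arrays was whether these genes moved together between 4 h and 16 h.

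The element appears in a database window around the start site of several of the genes, and the sequences that hold it are shown because the changes below are compared by its presence. RefSeq windows (GRCm38.p6, 250 bases before to 50 after a start site) were on hand for 28 of the 36 genes, and none was on hand for Cars, Hars, Lars, Nars, Rars, Vars, Wars or Slc7a5. The letters searched were TGATGNAAN on both strands. They occurred in 3.95% of all 32851 windows (4.50% of 27025 genes) and in the windows of 10 of the 28 genes (35.7%), namely Aars, Asns, Chac1, Gars, Iars, Slc7a11, Tars, Trib3, Vldlr and Yars. The windows of Atf4, Atf5 and Ddit3 did not hold these letters. The cAMP response element TGACGTCA, a different motif that also begins with TGA, occurred in 1.79% of all windows and in 0 of the 28. The matches of 8 of these genes are given with 10 bases on either side, 5′ to 3′ on the strand of the gene, with the match in capitals. A match on the other strand ends in CATCA when read in this orientation.
Asns, chr6:7693214-7693242, minus strand: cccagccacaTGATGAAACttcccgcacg
Gars, chr6:55037960-55037988, plus strand: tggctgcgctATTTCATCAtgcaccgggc
Tars, chr15:11399656-11399684, minus strand: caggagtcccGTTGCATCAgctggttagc
Iars, chr13:49682126-49682154, plus strand: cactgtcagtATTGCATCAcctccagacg
Trib3, chr2:152344029-152344057, minus strand: ttagctcaggTTTACATCAgccgggcggg
Chac1, chr2:119351038-119351066, plus strand: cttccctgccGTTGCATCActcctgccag
Yars, chr4:129189896-129189924, plus strand: cgagctcagcTGATGCAACccgacgggac
Vldlr, chr19:27216809-27216837, plus strand: agcagcaataGTTGCATCAgcgctcctag
The first base of the match lay 23 bases before the start site in Asns, 31 before it in Gars, 16 before it in Tars and 194 before it in Chac1. In Iars and Trib3 it lay 6 and 13 bases after the start site. Slc7a11 held a pair of matches 66 and 48 bases before its start site. The match of Vldlr lay 201 bases before the second of its start sites. The Asns and Gars windows are given in full up to the start site, since their element lies close to it.
Asns, chr6:7693210-7693459, minus strand: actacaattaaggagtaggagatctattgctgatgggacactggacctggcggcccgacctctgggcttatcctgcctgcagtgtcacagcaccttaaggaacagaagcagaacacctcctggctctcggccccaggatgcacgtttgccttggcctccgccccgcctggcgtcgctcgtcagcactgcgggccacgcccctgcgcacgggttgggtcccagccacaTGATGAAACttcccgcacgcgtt
Gars, chr6:55037751-55038000, plus strand: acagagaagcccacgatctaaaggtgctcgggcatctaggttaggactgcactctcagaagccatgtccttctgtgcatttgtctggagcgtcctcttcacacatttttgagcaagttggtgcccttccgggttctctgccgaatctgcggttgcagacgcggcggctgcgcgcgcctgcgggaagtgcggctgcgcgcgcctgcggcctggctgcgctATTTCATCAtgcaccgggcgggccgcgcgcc

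A probe was read against a noise limit, set for each array as the 99th percentile of its below-zero intensities with the sign turned (9.20 to 14.0 intensity units). Of the 35 genes with a probe, 33 lay above the limit on 3 or more arrays and are given a change, and 31 lay above it on all 6. Psph, the last enzyme of serine synthesis, was above it on 0 arrays. Slc7a11, the cystine transporter subunit, had 5 probes, and the one with the highest level was above the limit on 1 array. All 20 synthetases and 13 of the 15 other genes with a probe were measured, with Cars above the limit on 3 arrays and Slc3a2 on 5. For each gene the probe of highest mean level stands for the gene. A further 3 symbols that RefSeq pairs with Lars, Qars and Sars lie outside the selection rule; the one for Lars gave a log2 change of 0.24 (limma adjusted p = 0.942) and the other two were above the limit on 0 arrays. The symbol Farsa is also listed in RefSeq as an older name of Farsb.

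The 4 h arrays were brighter than the 16 h arrays before normalization, with mean intensities in a ratio of 1.37 and a median log2 ratio of 0.55 over the 14941 probes above the limit on every array. Quantile normalization removes such a shared difference, so each change below is relative to the other genes of the array. In the brightness, a change in the RNA per cell cannot be told apart from a change in the number of cells. Neither can be told apart from a technical difference between arrays, and the source of the brightness difference was not tested. Of the 12 L-cell and enteroendocrine markers, 9 were above the limit on all arrays, among them Gcg, while Pyy was above it on 0 arrays and Pcsk1 on 1. Of the markers of other cell types, Tff3 of goblet cells and Col1a1 of fibroblasts were above it on all arrays. The other goblet markers (Muc2 and Clca1) and fibroblast markers (Col1a2, Col3a1 and Dcn) were above it on 0 arrays. So were the 4 enterocyte and 4 leukocyte markers with a probe and the Paneth marker Lyz1. The endothelial markers Pecam1 and Cdh5 were each above it on 1 array. The summed deposited intensity of the 3 goblet markers was 629 to 865 at 4 h and 534 to 781 at 16 h, and that of the 4 fibroblast markers 23.1 to 51.4 and 23.2 to 30.1; their part in the results was not tested.

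No gene of either list passed the adjusted threshold of 0.05. Across all 45281 probes the same test called 2 higher and 2 lower at 4 h (0.00442% in each direction). At an unadjusted p under 0.05, 5 of the 33 genes were higher at 4 h (Atf5, Atf4, Nars, Gars and Tars) and 0 were lower, where 5.77% of the 12342 genes above the limit were higher and 5.21% lower. The 3 values at 4 h lay above the 3 values at 16 h, with no overlap, for 4 of the 33 genes (Atf5, Atf4, Nars and Gars) and below them for 0, against 6.48% and 5.71% of all genes. For a single gene, the smallest two-sided p that an exact permutation test over these 6 arrays can reach is 0.1. By sign, 21 of the 33 log2 changes (4 h minus 16 h) were above 0 and 12 below it (63.6% above, against 50.2% of all genes). Of the 33, 16 exceeded 0.1, 5 were under -0.1 and 12 lay between.

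**Figure D1:**
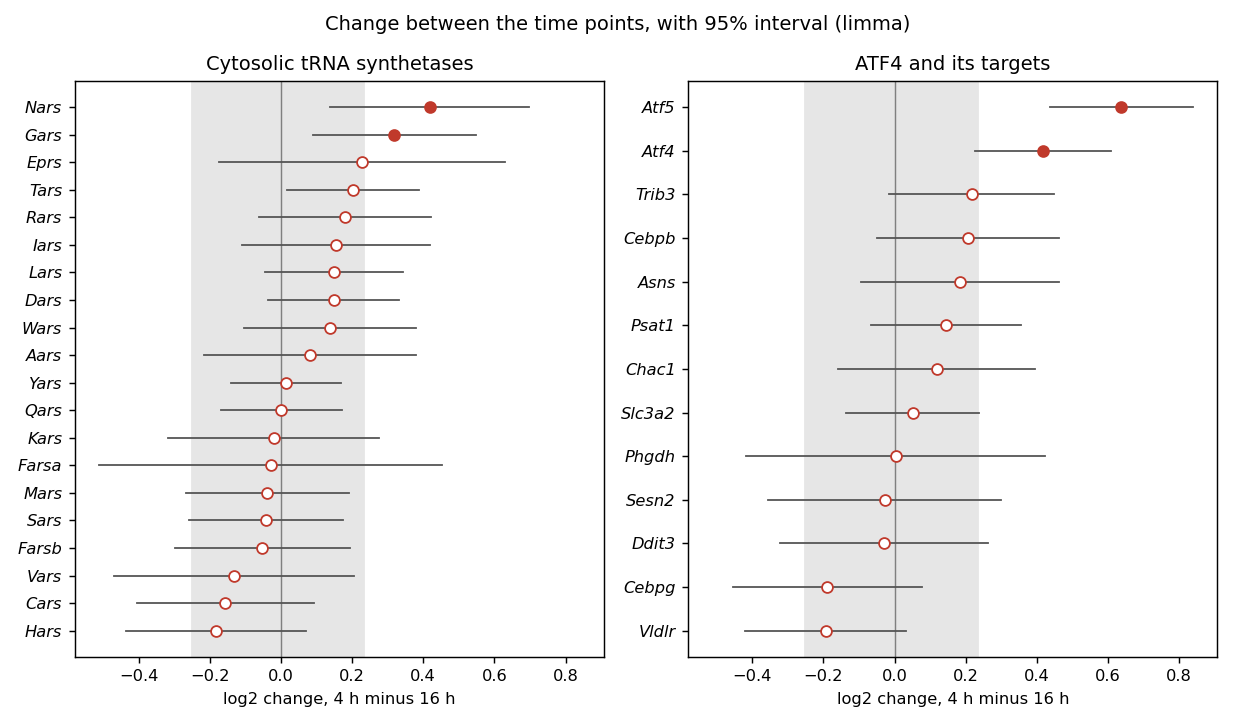
Log2 change (4 h minus 16 h) of the 33 measured genes, 20 synthetases on the left and 13 genes of the ATF4 list on the right, with the 95% interval of the limma fit as a line. Filled points are genes whose time points did not overlap, the grey band spans the 5th to 95th percentile of all 12342 measured genes (-0.25 to 0.23), and Atf5 at 0.64, Nars and Atf4 at 0.42 and Gars at 0.32 stand outside it.

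Among the transcription factors, Atf5 and Atf4 had the changes with the smallest p of the 33 genes. Atf5, a relative of ATF4 whose mRNA is likewise translated under eIF2α phosphorylation, measured 9.64, 9.81 and 9.66 at 4 h and 9.22, 9.01 and 8.96 at 16 h (normalized log2 intensity). Every 4 h value was higher than every 16 h value, and the gap between the groups exceeded the spread within either. The log2 change was 0.64 ± 0.089 (SE, n = 3 a group; 95% interval 0.44 to 0.84), a 1.56-fold difference, with a limma adjusted p = 0.150. It was larger than that of 99.9% of the measured genes. Atf5 lies on chr7:44812256-44816658 (GRCm38.p6) and had 1 probe, so no second probe could be set beside it.

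Atf4, the regulator itself (chr15:80255184-80257545), measured 12.01, 12.12 and 11.83 at 4 h and 11.55, 11.56 and 11.60 at 16 h. There was no overlap, and the 16 h values were close together (SD 0.025) while the 4 h values spread over more (SD 0.15). The log2 change was 0.42 ± 0.084 (SE, n = 3 a group; 95% interval 0.23 to 0.61), or 1.34-fold, with a limma adjusted p = 0.338. A second Atf4 probe gave a log2 change of 0.26. These are transcript levels; ATF4 is controlled to a large part in translation, which the arrays do not measure.

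The changes of the C/EBP partners of ATF4 had opposite signs, and neither passed the test. Cebpb had a log2 change of 0.21 ± 0.11 (SE), with its highest value on 4 h replicate 3 (10.81), whereas Cebpg had one of -0.19 ± 0.12 (SE), with its lowest value on that same array (9.22). Ddit3, which encodes the stress factor CHOP, measured 7.99, 8.54 and 8.24 at 4 h and 8.41, 8.20 and 8.24 at 16 h. Both the highest and the lowest of the 6 Ddit3 values were at 4 h, so the groups overlapped throughout. Its log2 change was -0.03 (SE 0.13, 95% interval -0.32 to 0.26; adjusted p = 0.993 by limma), and its second probe gave -0.05. The annotated spans of Ddit3 and Mars overlap at their ends on chromosome 10.

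Trib3, a pseudokinase that holds ATF4 and CHOP in check, measured 9.12, 9.53 and 9.42 at 4 h and 9.10, 9.13 and 9.18 at 16 h. Replicate 1 at 4 h lay within the 16 h range and the other two 4 h values above it. The log2 change was 0.22 (SE 0.10; adjusted p = 0.919 by limma), and the other Trib3 probes gave 0.03 and 0.10.

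Among the genes of amino acid synthesis, Asns, the asparagine synthetase whose element is printed above, measured 12.66, 12.87 and 13.08 at 4 h and 12.59, 12.89 and 12.57 at 16 h. Replicate 2 at 16 h stood as high as replicate 2 at 4 h, so the groups overlapped. The log2 change was 0.18 (SE 0.12; adjusted p = 0.948 by limma), and both other probes of Asns gave 0.13. Psat1, the aminotransferase of serine synthesis, had a log2 change of 0.15 ± 0.093 (SE). Phgdh, the first enzyme of that route, had one of 0.0028 ± 0.19 (SE), with the widest interval of the ATF4 list (-0.42 to 0.42).

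The remaining ATF4 targets lay on both sides of 0. Chac1, which degrades glutathione, had a log2 change of 0.12 ± 0.12 (SE), Slc3a2, the heavy chain of amino acid exchangers, one of 0.05, and Sesn2, a leucine sensor upstream of mTORC1, one of -0.03. Vldlr, a lipoprotein receptor induced by ATF4, measured 10.17, 10.13 and 10.17 at 4 h and 10.13, 10.54 and 10.38 at 16 h. Replicate 1 at 16 h matched the 4 h values and the other two stood above them. Its log2 change was -0.19 (SE 0.10; adjusted p = 0.920 by limma), the lowest of the 33 genes, and its 5 measured probes ran from -0.19 to 0.04. Over the ATF4 list, 9 of 13 changes were above 0 and 4 below, with a median of 0.12 against 0.00099 for all genes.

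**Figure D2:**
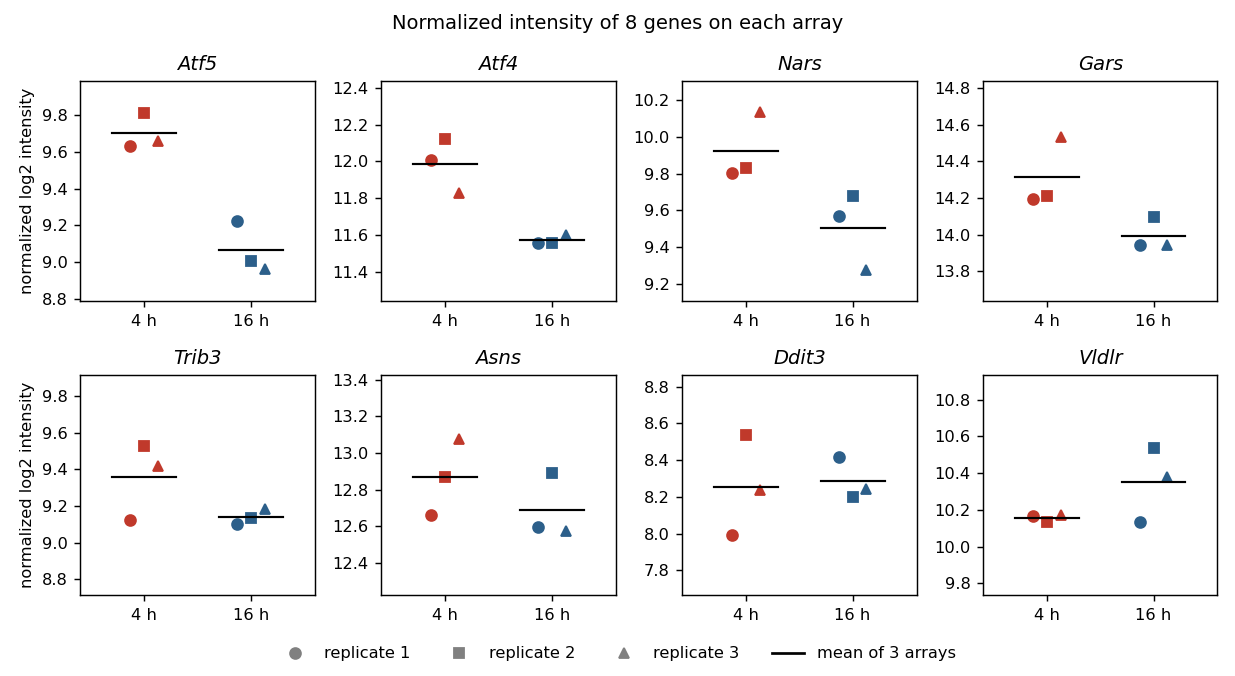
Normalized log2 intensity of 8 genes on each of the 6 arrays, with 4 h in red, 16 h in blue, marker shape for the replicate number and a line at each mean of 3 arrays; every panel spans 1.2 log2 units. The time points are apart for Atf5, Atf4, Nars and Gars and overlap for Trib3, Asns, Ddit3 and Vldlr.

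Of the 20 cytosolic synthetases, 2 had time points that did not overlap, both higher at 4 h, against 6.48% of all genes. Nars, which charges asparagine tRNA, measured 9.81, 9.83 and 10.14 at 4 h and 9.57, 9.68 and 9.27 at 16 h. Its groups were apart by less than the spread within either group, with the highest value on 4 h replicate 3 and the lowest on 16 h replicate 3. The log2 change was 0.42 ± 0.12 (SE; 95% interval 0.14 to 0.70), or 1.34-fold, with a limma adjusted p = 0.677.

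Gars, which charges glycine tRNA in both cytosol and mitochondria (chr6:55038001-55079504), measured 14.20, 14.21 and 14.53 at 4 h and 13.94, 14.10 and 13.94 at 16 h. Both groups were apart by the distance from 14.10 to 14.20, with 4 h replicate 3 well above the rest. The log2 change was 0.32 (SE 0.10; adjusted p = 0.734 by limma), and it was 0.16 with linear scaling of the arrays in place of quantile normalization. Tars, for threonine, measured 7.47, 7.58 and 7.66 at 4 h and 7.33, 7.48 and 7.29 at 16 h. Replicate 2 at 16 h lay just above replicate 1 at 4 h, and the log2 change was 0.20 (SE 0.082; adjusted p = 0.883 by limma).

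The other synthetases gave smaller or less even changes. Eprs, the fused glutamate and proline enzyme, had a log2 change of 0.23 ± 0.18 (SE), Rars (arginine) of 0.18, Iars (isoleucine) of 0.16, Lars (leucine) and Dars (aspartate) of 0.15 each, and Wars (tryptophan) of 0.14. Aars (alanine) had one of 0.08, and Yars (tyrosine), Qars (glutamine), Kars (lysine), Farsa and Farsb (the subunits for phenylalanine), Mars (methionine) and Sars (serine) lay between -0.05 and 0.01. Vars (valine), Cars (cysteine) and Hars (histidine) were the lowest, at -0.13, -0.16 and -0.18. Farsa had the widest spread, with 4 h values of 7.48, 7.38 and 6.59 (SD 0.49). With each array left out in turn, Eprs ran from 0.07 (without 16 h replicate 3) to 0.39 (without 16 h replicate 2) and Rars from 0.06 (without 4 h replicate 3) to 0.27 (without 4 h replicate 2). Over the 20 synthetases, 12 changes were above 0 and 8 below, with a median of 0.05 and a range of -0.18 to 0.42.

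The synthetases can be divided by whether they belong to the multi-synthetase complex, a particle that holds several of these enzymes on scaffold proteins. Of its 8 synthetase genes (Dars, Eprs, Iars, Kars, Lars, Mars, Qars and Rars), 6 had a change above 0 and 2 below, with a median of 0.15 and 0 past the test. The 12 synthetases outside it were split into 6 above and 6 below, with a median of -0.01. Without 4 h replicate 3 the complex had 5 above and 3 below, with a median of 0.07, and the others 5 above and 7 below, with a median of -0.02. Without 16 h replicate 3 the median of the complex was 0.08. The others had 9 above and 3 below without 4 h replicate 1 (median 0.04) and 7 above and 5 below without 16 h replicate 1 (median 0.02). In those fits the complex had 8 above and 0 below (median 0.16) and 6 above and 2 below (median 0.12), in that order. The scaffold genes did not show one direction, with -0.11 for Aimp1, -0.03 for Aimp2 and 0.11 for Eef1e1. The difference between the groups of synthetases was not tested.

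A list of synthetases that serve the mitochondria and have genes of their own was read beside them. Of its 17 genes 15 were above the limit on 3 or more arrays, of which 9 had a change above 0 and 6 below, with a median of 0.02 (60.0% above 0, as in the cytosolic list), and the difference between the lists was not tested. The 3 with the smallest p were Iars2 at 0.18, Sars2 at -0.26 and Wars2 at -0.16. Of the 15, 0 had an unadjusted p under 0.05, against 5.77% of all 12342 measured genes higher and 5.21% lower.

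A further list of 26 known ATF4 targets had 20 measured genes, 13 with a change above 0 and 7 below, with a median of 0.09. Xpot, which exports tRNA from the nucleus, had a log2 change of 0.55 (SE 0.12; adjusted p = 0.373 by limma) and Jdp2, an AP-1 repressor, one of 0.24 (SE 0.084; adjusted p = 0.811 by limma), both with no overlap between time points. Pycr1, an enzyme of proline synthesis, had one of -0.17 (SE 0.077; adjusted p = 0.919 by limma) and no overlap in the other direction. These are 2 of 20 genes higher and 1 lower without overlap, near the 6.48% and 5.71% of all genes. The largest negative change of this list was that of Ppp1r15a, the stress-induced phosphatase subunit for eIF2α, at -0.27 ± 0.13 (SE), with overlapping groups.

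Upstream of ATF4, the list of eIF2 subunits, kinases and regulators had 12 measured genes of 15, 8 with a change above 0 and 4 below, with a median of 0.07 and 0 past the adjusted threshold. Eif2s2, the β subunit of eIF2, had a log2 change of 0.43 (SE 0.13; adjusted p = 0.677 by limma) with no overlap. Eif2ak3, the kinase PERK, had one of 0.09 (SE 0.072, limma adjusted p = 0.957). Its time points did not overlap either, but only just, with a lowest 4 h value of 6.783 and a highest 16 h value of 6.779. Impact, an inhibitor of GCN2, was at -0.21. Without overlap, 2 of the 12 were thus higher and 0 lower, against 6.48% and 5.71% of all genes. Eif2ak4, which encodes GCN2 itself, was above the noise limit on 0 arrays.

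The changes were next read against the element. Of the genes whose window holds TGATGNAAN, 9 were measured, of which 8 had a change above 0 and 1 (Vldlr) below, with a median of 0.16 and a highest value of 0.32 in Gars. Of the 17 measured genes whose window lacks it, 9 were above and 8 below 0, with a median of 0.00098. The second group includes Atf5 and Atf4, and without them it held 7 above and 8 below, with a median of -0.02. Among genes outside the lists, the median was -0.01 over 173 genes that hold it (80 above 0, 93 below) and -0.0023 over 6230 that do not. Without 4 h replicate 3 the 9 genes with the element were 6 above and 3 below 0, with a median of 0.08, and the 17 without it were 8 above and 9 below, with a median of -0.02. Without 16 h replicate 3 the 9 were 7 above and 2 below, with a median of 0.08. Their median was 0.22 without 4 h replicate 1 and also without 16 h replicate 2, with 8 above and 1 below in each. The even split of the 17 did not hold without 4 h replicate 1 (13 above and 4 below, median 0.09) or without 16 h replicate 1 (12 above and 5 below, median 0.04). These are counts of a description, and 0 of the 9 genes passed the test.

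Whether the genes moved together was also visible array by array, as the deviation of each gene from its own mean over the 6 arrays. The median deviation of the 20 synthetases was -0.02, 0.03 and 0.17 on the 4 h arrays and -0.10, 0.0087 and -0.08 on the 16 h arrays. The shift of the synthetases at 4 h thus lay mainly on replicate 3, where 18 of the 20 were above their own mean, against 8 and 12 on the other 4 h arrays and 7, 12 and 7 at 16 h. On that array 50.3% of all genes were above their own mean. For 11 of the 20 synthetases it held the highest of the 6 values, where 20.5% of all genes had their highest value there. Without 4 h replicate 3 the median change of the synthetases was 0.0027, and without 4 h replicate 1 it was 0.14.

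The median deviation of the ATF4 list was -0.07, 0.09 and 0.15 at 4 h and -0.0048, -0.07 and -0.15 at 16 h, with 6, 9 and 9 of 13 genes above their own mean at 4 h and 6, 5 and 3 at 16 h. Of all genes, 48.5%, 53.7% and 50.3% were above their own mean at 4 h and 45.8%, 51.7% and 51.8% at 16 h. The highest value fell on 4 h replicate 2 for 5 of the 13 genes and on replicate 3 for 4. Those 2 arrays held the highest value for 16.6% and 20.5% of all genes, in that order. Its median change of 0.12 was 0.07 without 4 h replicate 3, 0.08 without 16 h replicate 3, 0.05 without 16 h replicate 2 and 0.18 without 16 h replicate 1. Whether the lists differ in how far they rest on 4 h replicate 3 was not tested. On 4 h replicate 1 both lists had medians below 0.

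**Figure D3:**
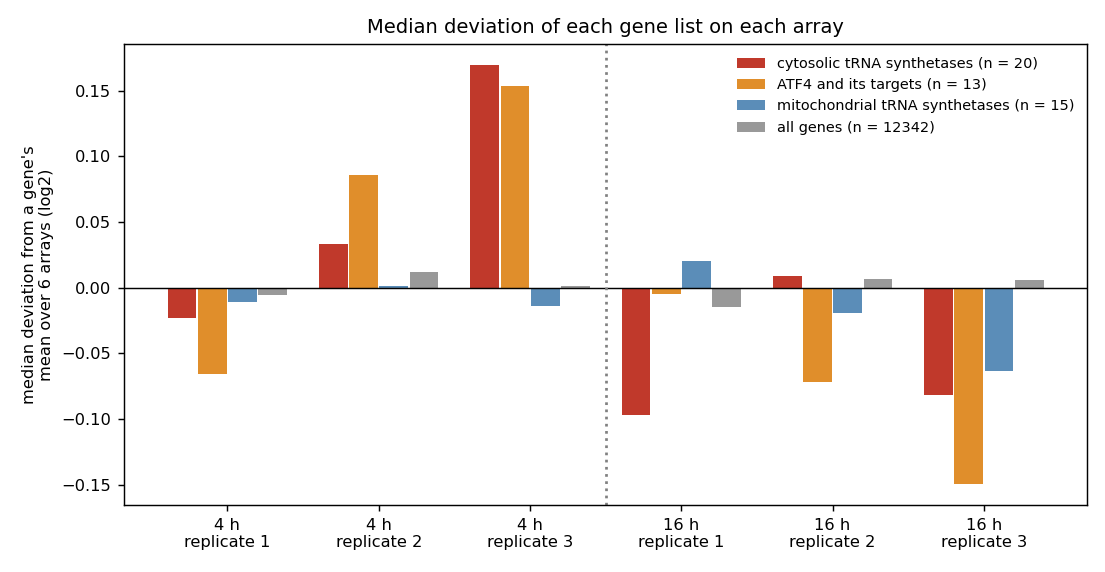
Median deviation (log2) of each gene list on each array, as bars, where a deviation is the normalized log2 intensity of a gene minus its mean over the 6 arrays; the dotted line parts 4 h from 16 h. The synthetases (0.17) and the ATF4 list (0.15) stand highest on 4 h replicate 3, and the mitochondrial synthetases and all genes stay within 0.064 of 0 on every array.

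A separation of the arrays that crosses the time points runs through some of the probes. The 3 probes for 18S ribosomal RNA and an Actb probe were high on 4 h replicate 1, 4 h replicate 3 and 16 h replicate 1 and low on the other 3 arrays, with median deviations of 0.23, 2.05 and 1.07 against -1.59, -0.69 and -1.14. The array that led the synthetases, 4 h replicate 3, was the highest in each of the 18S probes too, whereas the Actb probe was highest on 4 h replicate 1 (12.78, against 12.71 on replicate 3). Of the 60 measured probes of the lists, 12 (20.0%) were higher on each of the 3 high arrays than on any other and 1 was lower, against 10.3% and 9.31% of all 17366 measured probes. By gene, with the representing probe alone, 3 of 33 (9.09%) were higher and 1 (3.03%) was lower, against 987 (7.997%) and 1247 (10.1%) of all 12342 genes, so the share higher was near that of all genes. Since 2 of the 3 high arrays are from 4 h, this count and the change with time are not independent.

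The probes that followed the separation most were mainly second probes of a gene. The differences between high and low arrays were 0.61 for a probe of Wars, 0.57 for one of Dars, 0.54 for one of Eprs and 0.48 for one of Sars. None of the 4 is the probe that represents its gene. The representing probes of these genes gave differences of 0.15, 0.16, 0.25 and -0.00042 in that order. The change of Sars with time was 0.24 by the probe that followed the separation and -0.04 by the representing one. Phgdh, with 1 probe, followed it as well, at 7.93, 7.94 and 8.22 on the high arrays and 7.50, 7.53 and 7.62 on the low ones. With the separation as a block the log2 change of Phgdh was -0.18 (SE 0.081; adjusted p = 0.854 by limma), in place of 0.0028. The part of the separation in the other results was not tested beyond the blocked and within-separation values that follow.

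Changes were also computed within each side of the separation. Atf5, Atf4, Nars and Gars have time points that do not overlap. For these genes a positive sign on both sides follows from that and carries no further support. Among the high arrays 16 h is replicate 1 alone, and among the low arrays 4 h is replicate 2 alone. Each difference below thus rests on a single array for 16 h or for 4 h, and it reuses the values behind the main change. Among the high arrays and among the low arrays the difference of 4 h from 16 h was 0.43 and 0.83 for Atf5, 0.37 and 0.54 for Atf4, 0.40 and 0.36 for Nars, 0.42 and 0.19 for Gars, and 0.23 and 0.20 for Tars. Ddit3 was at -0.30 among the high arrays and 0.32 among the low ones. In all, 15 of the 33 genes (45.5%), the 4 that do not overlap included, were higher at 4 h on both sides and 3 (9.09%) were lower on both, against 29.3% and 25.8% of all 12342 genes. With the separation as a block, Atf5 had a log2 change of 0.63 (limma adjusted p = 0.145) and Atf4 of 0.45 (limma adjusted p = 0.216), 0 genes passed the adjusted threshold, and the medians were 0.08 for the synthetases and 0.09 for the ATF4 list.

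**Figure D4:**
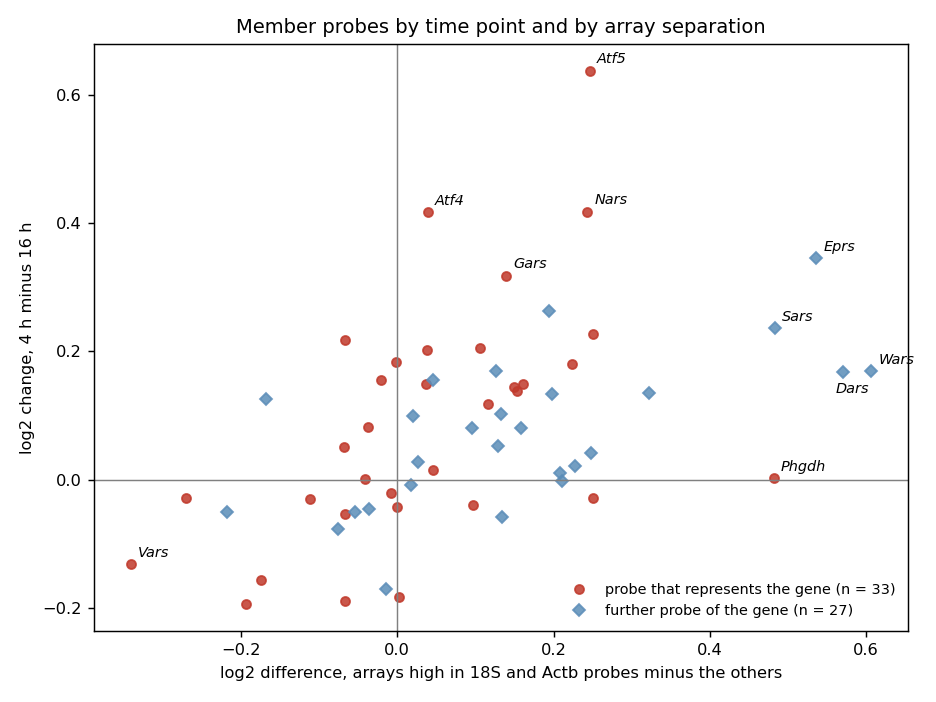
Each of the 60 measured probes of the lists by its log2 difference between the arrays high and low in 18S and Actb probes (horizontal) and its log2 change with time (vertical), with the 33 representing probes in red and the 27 further probes in blue. Probes of Wars, Dars, Eprs, Sars and Phgdh lie far to the right. The representing probe of Atf4 lies near 0 on the horizontal axis (0.04) and its second probe at 0.19. Those of Atf5, Nars and Gars lie further to the right, at 0.25, 0.24 and 0.14.

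Probes of the same gene could be compared for 18 genes. All measured probes had 1 sign in 13 of them, among them Atf4, Asns, Trib3, Eprs, Rars, Tars and Wars, and both signs occurred in 5 (Kars, Lars, Sars, Sesn2 and Vldlr). In 0 of the 18 did the changes differ by more than 0.3. The largest difference was the 0.28 between the Sars probes, followed by 0.24 among the 5 probes of Vldlr and 0.20 between the probes of Lars (0.15 and -0.05).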

How the data were processed

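Total RNA of 6 samples of mGLUTag cells was hybridized to mouse Illumina BeadChips, 1 array per sample. The authors deposited background-subtracted intensities (linear scale, 1 value a probe on each array) without between-array normalization. Scanner software, background method and slides are not given in the sources used here. The methods name limma for the study's own test.

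After background correction by normexp (offset 50), arrays were quantile normalized, and log2 values were fitted to all 45281 probes with time as the only term (R 4.3.3, limma 3.58.1, lmFit and eBayes). Benjamini-Hochberg adjustment of the two-sided p-values ran over the whole table, with a threshold of 0.05. The offset shrinks the changes of dim probes. Levels were compared between probes only to choose the probe that stands for a gene. The number of arrays limits the precision.

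The genes, their rule and the other lists were chosen with earlier results of these data known. Of the 33 measured genes, values of all 6 arrays are printed for those whose time points did not overlap, the 5 with the smallest p, Atf4, Asns, Ddit3 and Trib3. Genes of the other lists are given by their change (up to 3 a list, by smallest p). The values printed for Vldlr and Phgdh, single arrays of Farsa, Cebpb and Cebpg, Ppp1r15a, Eif2ak3, Eif2ak4 and the probes discussed by separation were added after their values were seen. Sequences and positions are from RefSeq (GRCm38.p6); for the array table no build is given. Some sequence matches are not reported here.

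Alternatives were other background, offset, normalization, probe filters, variance models, weights per array, a block by replicate number, each array left out and the mean over probes. The separation by 18S and Actb probes as a block was added after seeing the data. Same-numbered samples correlated in their deviations by 0.25, 0.17 and -0.49, so the numbers were not taken as pairs.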

Additional observations from a re-analysis of the deposited data

How the results depend on the processing

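The count of genes called by limma was 0 in each direction under all alternatives but 2. Median scaling, which left the median of all genes at 0.25, called 2 higher at 4 h (Atf5 and Atf4; 1.71% of all 12342 measured genes), and no between-array normalization, which left it at 0.37, called 10 (those 2 with Nars, Gars, Trib3, Tars, Asns, Lars, Dars and Psat1; 14.9% of all). These 2 settings also moved the median change of the synthetases to 0.38 and 0.53 and that of the ATF4 list to 0.42 and 0.60, and they keep all or part of the brightness difference between the time points. Linear scaling lowered the medians to 0.02 and 0.07 and the change of Gars to 0.16. It also lowered the changes of Asns to 0.09, Psat1 to 0.07, Aars to 0.05 and Slc3a2 to 0.01. Leaving out each array in turn called 0 genes in either direction, with 4 to 9 of the 33 higher and 0 to 2 lower at an unadjusted p under 0.05, against 4.16% to 6.94% and 3.62% to 8.07% of all genes in the same fits; the median was 0.0027 to 0.14 for the synthetases and 0.05 to 0.18 for the ATF4 list. With the replicate number as a block 0 genes were called and 6 had an unadjusted p under 0.05, all higher (6.16% of all genes higher and 6.22% lower in that fit); the block changed no call. Of the 21 genes higher at 4 h, 16 were higher under all 19 alternatives, with Atf5 between 0.59 and 1.13 and Atf4 between 0.34 and 0.87. Of the 12 lower ones, 4 (Cars, Hars, Cebpg and Vldlr) stayed below the median gene under all 19. The sign of 17 genes changed under 1 alternative or more, and that of 13 relative to the median gene; Cars, Hars, Cebpg and Vldlr changed sign only under median scaling or no between-array normalization, which shift all genes up. Leaving out 1 array moved the change by over 1.5 times, or past 0, in 28 of the 33 genes; Atf5, Atf4, Nars, Gars and Tars were the other 5. The number of arrays limits every comparison.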
